A study of Homo sapiens with 12 samples.

Results

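The 39 genes of the NF-kB pathway described here were found by gene symbol among the 18950 genes of a table of bulk RNA-seq values from sorted human prostate cancer cells. They comprise 5 subunits of the transcription factor, 5 genes of the IkB family, 4 genes of the upstream kinases and 7 receptors and adaptors. The rest are 4 genes of the ubiquitin-editing brake, 8 cytokines and 6 effector targets. All 39 symbols were in the table. Of these, 36 reached 1 CPM (counts scaled to the library total) in at least 3 of the 12 libraries and entered the test, and the other 3, TNFRSF1B, IL1A and IL11, were below that minimum in every library. Of the 36, 33 reached the minimum in all 12 libraries. IL6 reached it only in PC3 libraries, IL1B only in 3 PC3 libraries and MAP3K8 only in DU145 libraries, so their tests rest on low levels in the other line.

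The cells were PC3 and DU145, established lines grown from metastases of prostate cancer. Both carried a GFP signal that the submitters read as activity of Wnt/β-catenin signalling, and the cells were sorted into the brightest 10% (labelled GFP+, here GFP high) and the dimmest 10% (labelled GFP-, here GFP low). This gave 4 groups of 3 libraries, namely PC3 GFP high, PC3 GFP low, DU145 GFP high and DU145 GFP low, all grown in DMEM with 10% FBS and with no other treatment stated. The labels give neither the reporter construct nor whether a line was a single clone. They also do not tie the 3 libraries of each group to separate cultures, so the p-values below measure only the spread between these libraries, which may be technical.

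NF-kB is a family of dimeric transcription factors that inhibitors of the IkB family hold in the cytoplasm. Signals from cytokine receptors pass through TRAF adaptors and ubiquitin ligases to the IkB kinase complex, which marks the inhibitors for destruction and frees the dimers to bind kappaB sites in promoters and enhancers. The targets include cytokines, adhesion molecules and survival genes, and also the pathway's own inhibitors and brakes, which close a feedback loop. In cultured prostate cancer cells, this pathway is known for constitutive activity and for secreted cytokines such as interleukin-6.

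The libraries held 13453614 to 21528810 estimated counts, and the upper limit set by 0 counts was 0.130 to 0.233 CPM, for counting error only. The keratin genes KRT8 and KRT18 were present in both lines, while EPCAM, KRT19 and CDH1 were at or near 0 counts. The luminal genes KLK2, KLK3 and TMPRSS2 were also at or near 0. Of 7 leukocyte markers, 5 were in the table, and their summed level was 6.18 to 7.29 CPM in PC3 GFP high, 4.63 to 7.44 CPM in PC3 GFP low, 25.8 to 32.5 CPM in DU145 GFP high and 39.1 to 44.8 CPM in DU145 GFP low, almost all from CD68, with the defining gene PTPRC at or near 0 counts. Summed fibroblast markers reached at most 3.68 CPM and endothelial markers at most 1.19 CPM in any library. In such bulk samples, fewer cells of a type and less RNA per cell cannot be told apart.

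The sequences below show where the pathway's own binding site lies in the promoters of members that rose in PC3. RefSeq (GRCh38.p14) windows from 250 bases before to 50 bases after an annotated start were matched to 33 of the 39 members; RELB, NFKBIE, IKBKB, LIF, CSF1 and IER3 had no matched window. The consensus kappaB site was searched on both strands, and it was found in at least 1 window of 16 of the 33. Over all genes of the table with a window, 16.8% of 13863 genes held such a match. Each line gives the strand of the gene, 5′ to 3′, with the match in capitals. In IL32 and PTX3 the capitals join 2 overlapping matches, and in TNFAIP3 and BIRC3 there are 2 separate ones. BIRC3 is shown as a member with matches that did not pass the test in PC3.
NFKB1, chr4:102501300-102501329, plus strand: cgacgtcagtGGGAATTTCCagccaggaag
NFKB2, chr10:102395674-102395703, plus strand: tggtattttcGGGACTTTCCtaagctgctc
NFKBIA, chr14:35404796-35404855, minus strand: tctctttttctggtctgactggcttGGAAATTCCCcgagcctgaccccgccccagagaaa
TNFAIP3, chr6:137867167-137867238, plus strand: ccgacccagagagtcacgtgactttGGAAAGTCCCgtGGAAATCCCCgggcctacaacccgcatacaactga
IL6, chr7:22727102-22727161, plus strand: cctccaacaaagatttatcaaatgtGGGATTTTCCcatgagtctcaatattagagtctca
IL32, chr16:3065295-3065323, plus strand: ctgtactcaGGGAGTTTCCCcagccagct
PTX3, chr3:157436728-157436788, plus strand: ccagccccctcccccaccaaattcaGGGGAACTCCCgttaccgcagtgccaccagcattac
BIRC3, chr11:102317260-102317383, plus strand: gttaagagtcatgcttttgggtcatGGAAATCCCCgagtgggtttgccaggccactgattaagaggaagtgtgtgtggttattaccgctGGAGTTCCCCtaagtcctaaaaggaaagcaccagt

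A match was held by 7 of the 12 members with a window that rose in PC3 (58.3%) and by 9 of the 18 tested members with a window that did not pass there (50%). TRAF1, IRAK2, CSF2, ICAM1 and SOD2 rose with no match in these windows, which says only that the letters are not there. The matches are descriptions of sequence, and binding was not measured.

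The first question was how GFP high cells of each line differed from GFP low cells in these genes. In PC3, members of every role except the kinases were higher in GFP high cells. The transcription factor genes NFKB1, NFKB2 and RELB, the inhibitor gene NFKBIA, the adaptor genes TRAF1 and IRAK2, the brake gene TNFAIP3, the cytokine genes IL6, LIF, CSF1, CSF2 and IL32 and the effector genes ICAM1, SOD2 and PTX3 rose. That is 15 of the 36 tested members risen and 0 fallen (limma, Benjamini-Hochberg over 12527 genes, adjusted p under 0.05), or 41.7% of the members against 9.44% of all genes tested, 4.17% of which were higher and 5.27% lower. The median log2 fold change was 0.40 over the members and -0.02 over all genes. The members were chosen with earlier results of these data known, so contrasts of them with all genes, here and below, are descriptive only. At an unadjusted p under 0.05, TNFRSF1A was the 1 member lower, and with voom on estimated counts 16 members rose and 0 fell. The 2 groups of PC3 libraries did not overlap for 21 members that were higher and 2 that were lower in GFP high (BCL3 and TNFRSF1A); 30.4% of all genes did not overlap, 14% higher and 16.4% lower. Of the 15 calls, 10 held under every alternative processing that was run, and those of NFKB1, NFKB2, NFKBIA, TRAF1 and CSF2 did not. Summed fibroblast markers were 2.85 to 3.68 CPM in PC3 GFP high, against 0.815 to 1.78 CPM in PC3 GFP low, with COL1A2 and LUM at 0 counts in both, and summed endothelial markers were 0.898 to 1.19 CPM, against 0.388 to 0.611 CPM; their part in the result was not tested.

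In DU145, the same comparison went in both directions. The kinase gene CHUK, the ubiquitin ligase genes BIRC2 and BIRC3, the deubiquitinase gene CYLD and the cytokine gene CSF2 rose in GFP high cells, while NFKB2, TNFRSF1A, TNIP1, TNIP2, LIF, ICAM1, IER3 and PTX3 fell. These 5 risen and 8 fallen members were 36.1% of the 36, against 27.1% of all genes (13.1% higher and 13.9% lower), with a median log2 fold change of -0.07 over the members and -0.01 over all genes. With the medians of the libraries set equal, 4 members rose and 11 fell. In that setting 28.9% of all genes passed, 1313 higher and 2305 lower, and their median log2 fold change was -0.10. After removal of a trend with GC content and length, the calls of CHUK, BIRC2, BIRC3, CYLD, TNFRSF1A, TNIP2, LIF and ICAM1 did not pass, so that ICAM1 and LIF then rose in PC3 without a fall that passed in DU145. The DU145 libraries did not overlap for 7 higher and 10 lower members, against 40.5% of all genes, 17.9% higher and 22.6% lower. CSF2 rose in both lines, in which 0.335% of all genes rose, and NFKB2, LIF, ICAM1 and PTX3 rose in PC3 and fell in DU145, as 0.958% of all genes did. No member passed as lower in both, as 0.822% of all genes did. The 13 members that passed in neither line were REL, RELA, NFKBIB, NFKBIE, NFKBIZ, BCL3, IKBKB, IKBKG, MAP3K8, TRAF2, IL1B, TNFAIP2 and IRF1. The summed epithelial markers were 2881 to 3589 CPM in DU145 GFP high, against 4421 to 4891 CPM in DU145 GFP low, and the leukocyte sum led by CD68 was lower in GFP high too; their part in the result was not tested.

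**Figure D1:**
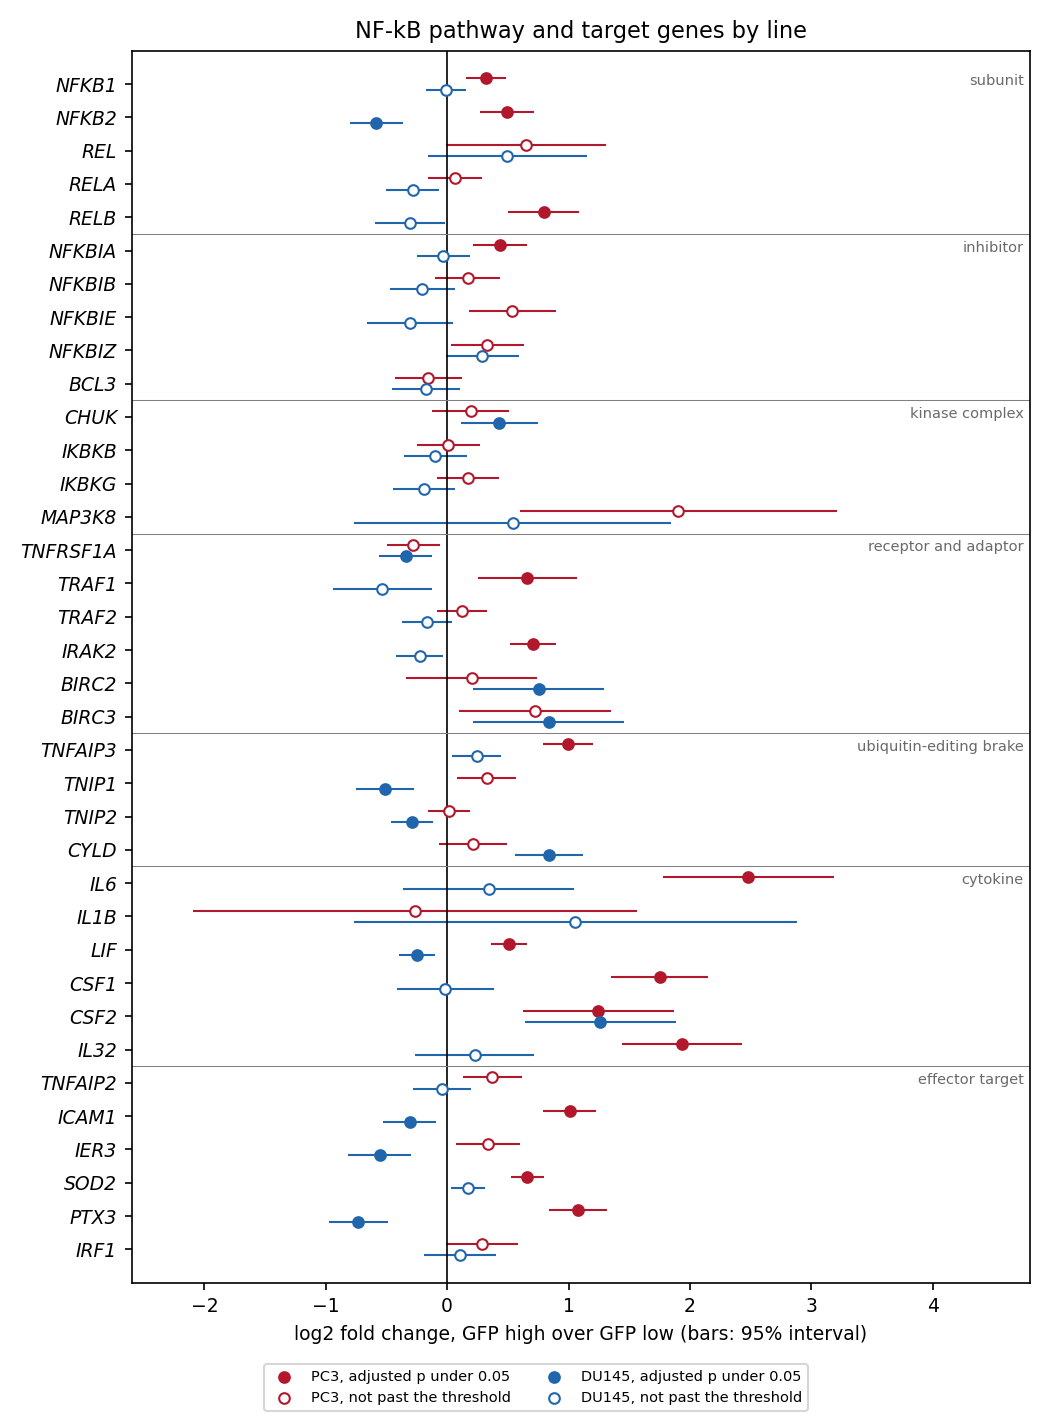
Log2 fold change of GFP high over GFP low (horizontal axis) for the 36 tested members, grouped by role from top to bottom, with PC3 in red above DU145 in blue. Points are limma estimates, bars are 95% intervals and filled points passed an adjusted p of 0.05; 15 PC3 points are filled, all to the right of 0, and the 13 filled DU145 points lie on both sides.

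The number of DU145 calls depended on which library was left out. Leaving out GFP high replicate 1, 2 or 3 gave 6, 6 and 21 calls. Leaving out GFP low replicate 1, 2 or 3 gave 6, 14 and 5. The share of all genes called moved with this number. It was 7.15%, 8.51% and 44.7% without those GFP high libraries and 10.6%, 27.5% and 7.71% without those GFP low libraries. With GFP high replicates 1 and 2 both left out, 1 call (PTX3) was made, as for 1.36% of all genes, from a lone library assumed to vary like the other groups. In PC3 the count stayed between 11 and 20 when any library was left out, with 5.27% to 9.48% of all genes called.

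Subunits of the transcription factor differed in how far they moved. NFKB2 (ENSG00000077150, chromosome 10, 102394110 to 102402529, GENCODE 29 on GRCh38) encodes p100, the precursor that holds RelB in the non-canonical pathway and is itself a known target. It had 176, 179 and 188 CPM in the PC3 GFP high libraries, against 127, 145 and 116 CPM in PC3 GFP low. In DU145 it had 221, 257 and 276 CPM in GFP high, against 384, 338 and 407 CPM in GFP low. All 3 GFP high libraries lay above all 3 GFP low libraries in PC3 and below them in DU145. The log2 fold change was 0.49 ± 0.10 (SE, limma adjusted p = 0.00801) in PC3 and -0.58 ± 0.10 (adjusted p = 0.003) in DU145.

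RELB (ENSG00000104856, chromosome 19, 45001430 to 45038198), the partner of p52 and p50, had 70.6, 64.6 and 59.8 CPM in PC3 GFP high, against 34.5, 46.6 and 32.6 CPM in PC3 GFP low. In DU145 its levels were 92.8, 102 and 124 CPM in GFP high, against 129, 122 and 141 CPM in GFP low. The PC3 groups were apart, while the highest DU145 GFP high library lay above the lowest GFP low library. RELB rose in PC3 (0.79 ± 0.14 on the log2 scale, limma adjusted p = 0.00228) and did not pass in DU145 (-0.31 ± 0.14, adjusted p = 0.103). NFKB1, which encodes p105, the precursor of p50, had 78.5, 80.4 and 75.3 CPM in PC3 GFP high, against 64.4, 64.8 and 58.4 CPM in PC3 GFP low, with no overlap. Its log2 fold change in PC3 was 0.32 ± 0.08 (limma adjusted p = 0.0171), and the adjusted p was 0.0662, 0.075 and 0.0568 on leaving out PC3 GFP high replicate 1, GFP high replicate 2 or GFP low replicate 3. In DU145 the NFKB1 change was -0.01 ± 0.08.

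RELA, the subunit that carries most canonical activity, averaged 177 ± 13 CPM in PC3 GFP high and 170 ± 20 CPM in PC3 GFP low (SD, n = 3 each), with overlapping libraries and a log2 fold change of 0.06 ± 0.10. Its DU145 levels were 314 ± 40 CPM in GFP high, against 381 ± 22 CPM in GFP low, a log2 fold change of -0.28 ± 0.10 that missed the threshold (limma adjusted p = 0.0544). REL, the lymphoid-rich subunit, varied widely within groups, from 9.28 to 23.7 CPM in DU145 GFP high, and passed in neither line (0.65 ± 0.31 in PC3 and 0.50 ± 0.31 in DU145). Estimated counts of REL were not whole in 10 of 12 libraries, so its level is less certain. Per kilobase of the longest coding transcript, the PC3 GFP high level was 55.6 CPM per kb for RELA, 53.1 for NFKB2, 28.3 for RELB, 19.1 for NFKB1 and 1.72 for REL.

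**Figure D2:**
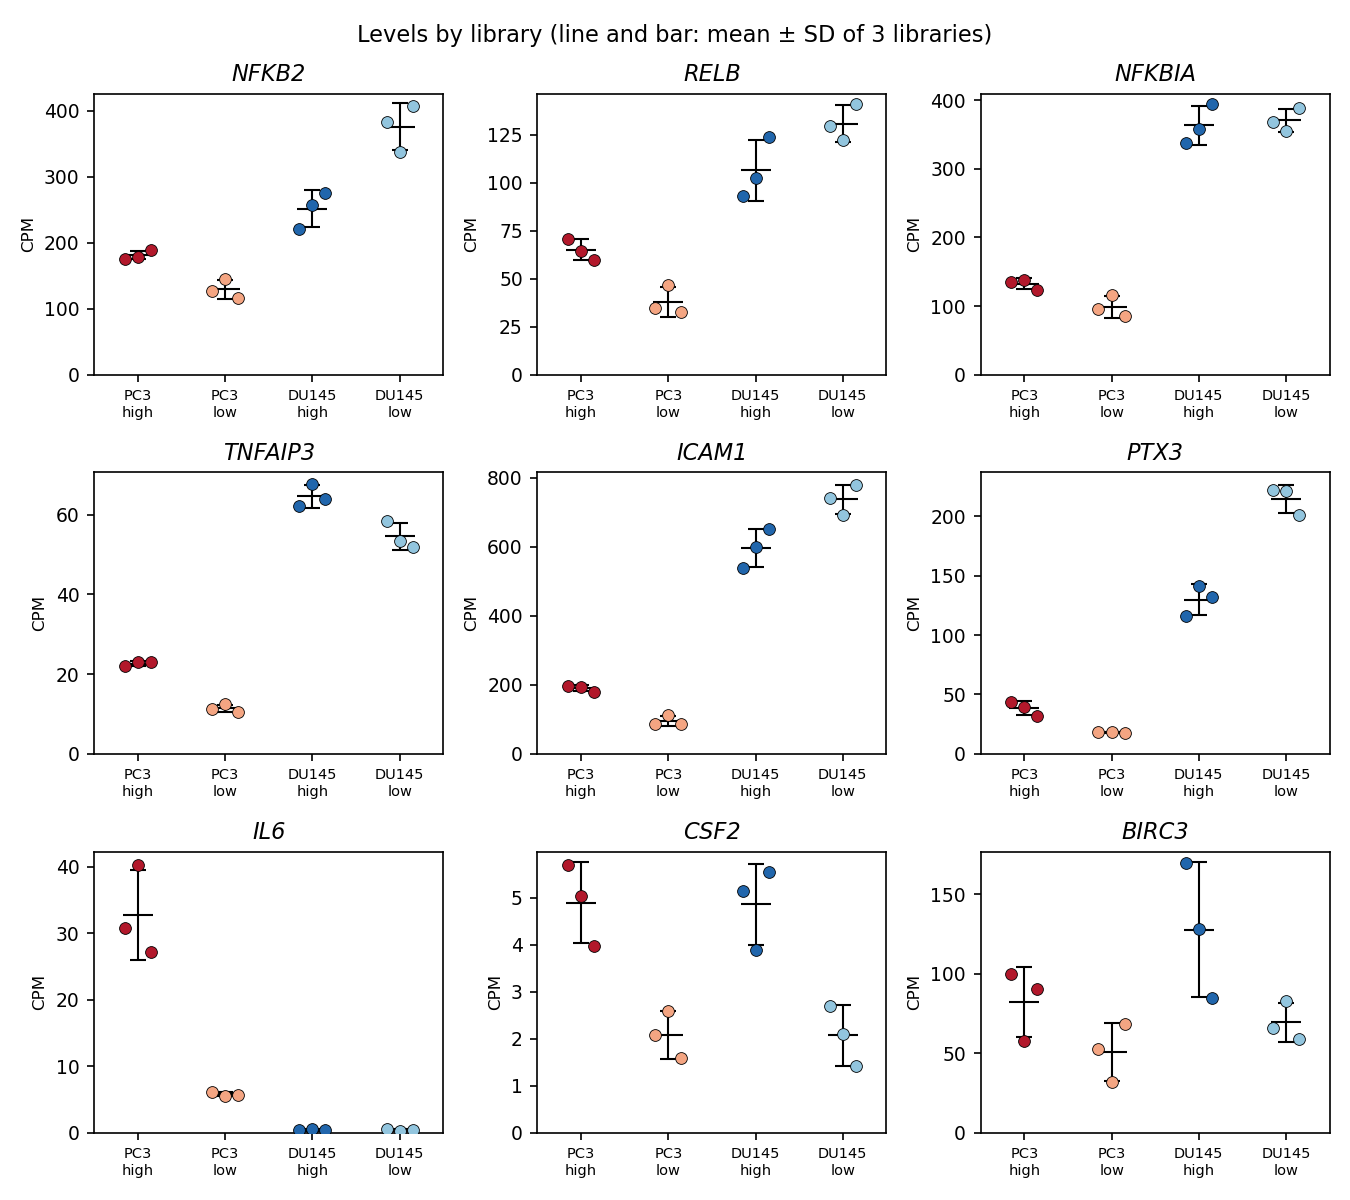
Level in CPM (vertical axis, linear, from 0) of 9 members in each of the 12 libraries, by line and GFP sort (GFP high left of GFP low). Points are libraries and the line and bar are the mean ± SD of 3 libraries; NFKB2, ICAM1 and PTX3 are higher in PC3 GFP high and lower in DU145 GFP high than in the GFP low cells of the same line, and CSF2 is higher in GFP high cells of both.

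Of the IkB family genes, 1 of 5 passed in PC3 and none in DU145, where NFKBIZ had the lowest adjusted p in limma (0.127). None of the 5 was under an unadjusted limma p of 0.05 in DU145, and none passed there with voom. NFKBIA (ENSG00000100906, chromosome 14, 35401511 to 35404749) encodes IkBα, the inhibitor that NF-kB itself re-induces. It had 135, 139 and 123 CPM in PC3 GFP high, against 95.7, 116 and 84.9 CPM in PC3 GFP low. The DU145 levels were 337, 359 and 394 CPM in GFP high, against 368, 356 and 388 CPM in GFP low. The PC3 groups did not overlap and the DU145 groups did. NFKBIA rose by 0.43 ± 0.10 on the log2 scale in PC3 (limma adjusted p = 0.0165) and the DU145 value was -0.03 ± 0.10. The PC3 call was lost without GFP high replicate 1 or 2 or GFP low replicate 1 or 3, with an adjusted p of 0.0663, 0.0732, 0.061 and 0.051.

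The other IkB family genes passed in neither line. NFKBIE, which encodes IkBε, had higher levels in each PC3 GFP high library than in any GFP low library, with a log2 fold change of 0.54 ± 0.17 that missed the threshold (limma adjusted p = 0.06). NFKBIB, which encodes IkBβ, had log2 values of 0.17 ± 0.12 in PC3 and -0.20 ± 0.12 in DU145. The nuclear IkB genes NFKBIZ (0.33 ± 0.14 in PC3 and 0.29 ± 0.14 in DU145) and BCL3 (-0.15 ± 0.13 and -0.17 ± 0.13) had values of the same sign in both lines.

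Of the kinase genes, none of 4 passed in PC3 (limma; MAP3K8 was the 1 under an unadjusted p of 0.05, and none passed with voom) and 1 did in DU145. CHUK, which encodes IKKα, rose in DU145 to 15.7 ± 1.5 CPM in GFP high, against 11.7 ± 1.6 CPM in GFP low (SD, n = 3 each; log2 fold change 0.43 ± 0.15, limma adjusted p = 0.0457), with no overlap. Its PC3 log2 fold change was 0.19 ± 0.15. The DU145 call was lost without GFP high replicate 1 or 2 or GFP low replicate 1 or 3 (adjusted p 0.152, 0.137, 0.0997 and 0.178). IKBKB, which encodes IKKβ, had log2 values of 0.01 ± 0.12 in PC3 and -0.10 ± 0.12 in DU145, with 95% intervals of -0.25 to 0.27 and -0.36 to 0.16. IKBKG, which encodes the scaffold NEMO and has a near-identical pseudogene, had 0.17 ± 0.12 in PC3 and -0.19 ± 0.12 in DU145, from estimated counts that were not whole in 11 libraries. MAP3K8, which encodes the kinase TPL2, had 21 counts over the PC3 GFP high libraries and 5 over PC3 GFP low, with 121 and 96 counts in DU145 GFP high and GFP low, and did not pass (limma adjusted p = 0.0667 in PC3 and 0.513 in DU145).

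Of 6 tested receptors and adaptors, IRAK2 and TRAF1 rose in PC3, and BIRC2 and BIRC3 rose and TNFRSF1A fell in DU145. IRAK2, a kinase-like adaptor of interleukin-1 and Toll-like receptors, averaged 56.4 ± 6.0 CPM in PC3 GFP high and 34.4 ± 1.4 CPM in PC3 GFP low (SD, n = 3 each), a log2 fold change of 0.71 ± 0.09 (limma adjusted p = 0.000188), with the groups apart. In DU145 it averaged 97.3 ± 5.9 CPM in GFP high, against 114 ± 5.7 CPM in GFP low (-0.23 ± 0.09, adjusted p = 0.0706). TRAF1, an adaptor that is a target of the pathway, had 12.6, 12 and 11.6 CPM in PC3 GFP high, against 7.08, 9.40 and 6.66 CPM in PC3 GFP low. The DU145 levels were 2.16, 2.02 and 2.21 CPM in GFP high, against 3.49, 2.68 and 3.13 CPM in GFP low. The groups were apart in both lines and in opposite directions. TRAF1 rose in PC3 (0.66 ± 0.19, limma adjusted p = 0.0433) and just missed in DU145 (-0.53 ± 0.19, adjusted p = 0.051). Its PC3 call was lost without any of the 3 GFP high libraries and without GFP low replicate 1 or 3 (adjusted p 0.0979 to 0.152).

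BIRC3 and BIRC2, which encode the ubiquitin ligases cIAP2 and cIAP1, both lie on chromosome 11 (102317450 to 102339403 and 102347211 to 102378670). BIRC3 had 99.6, 57.7 and 90.2 CPM in PC3 GFP high, against 52.4, 32 and 68.5 CPM in PC3 GFP low. In DU145 libraries there were 170, 128 and 84.9 CPM in GFP high, against 65.9, 83.0 and 59.1 CPM in GFP low. The PC3 groups overlapped, and the lowest DU145 GFP high library stood just above the highest GFP low library. The log2 fold change was 0.72 ± 0.29 (limma adjusted p = 0.148) in PC3 and 0.84 ± 0.29 (adjusted p = 0.0473) in DU145. BIRC2 had 73.0, 47.0 and 30.2 CPM in DU145 GFP high, against 30.9, 30.9 and 22.6 CPM in GFP low, groups that overlapped (0.75 ± 0.25, adjusted p = 0.0416). Both DU145 calls were lost without GFP high replicate 1 or 2 or GFP low replicate 1 or 3 (adjusted p 0.122 to 0.203 for BIRC3 and 0.0797 to 0.19 for BIRC2), and that of BIRC2 also without GFP low replicate 2 (0.052). The GFP effects of the 2 lines did not differ past the threshold for BIRC3 (PC3 minus DU145 -0.11 ± 0.41, limma adjusted p = 0.866) or BIRC2 (-0.55 ± 0.36, adjusted p = 0.29). With the trend in GC content and length removed, BIRC3 passed in PC3 (0.76 ± 0.09, limma adjusted p = 4.87e-05). It then did not pass in DU145 (0.11 ± 0.09, adjusted p = 0.423), and its difference between the lines was 0.65 and passed.

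TNFRSF1A, the main receptor for tumour necrosis factor, fell in DU145 (67.1 ± 8.5 CPM in GFP high, against 84.6 ± 5.5 CPM in GFP low, SD, n = 3 each; log2 fold change -0.34 ± 0.10, limma adjusted p = 0.0284). This call was lost without GFP high replicate 1 or 2 or GFP low replicate 1 or 3 (adjusted p 0.0946 to 0.131). In PC3, each GFP high library was also below every GFP low library, with a log2 value of -0.28 ± 0.10 that did not pass. TRAF2, an adaptor of that receptor, had 0.12 ± 0.10 in PC3 and -0.17 ± 0.10 in DU145. TNFRSF1B, the other receptor, was below the minimum, with 0 and 1 counts over the GFP high and GFP low libraries of PC3, and 12 and 19 counts in DU145.

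The ubiquitin-editing brake held the member with the lowest adjusted p in PC3. TNFAIP3 (ENSG00000118503, chromosome 6, 137867188 to 137883312) encodes A20, a feedback inhibitor induced by NF-kB. It had 21.9, 23.0 and 23.0 CPM in PC3 GFP high, against 11.2, 12.4 and 10.6 CPM in PC3 GFP low. Its levels in DU145 were 62.1, 67.8 and 64.0 CPM in GFP high, against 58.4, 53.5 and 51.9 CPM in GFP low. GFP high libraries lay above GFP low libraries in both lines, by a far wider margin in PC3. TNFAIP3 rose 1.99-fold in PC3 (log2 fold change 0.995 ± 0.09, limma adjusted p = 2e-05) and its DU145 value of 0.24 ± 0.09 missed the threshold (adjusted p = 0.0671).

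CYLD, a deubiquitinase that opposes the pathway, averaged 18.1 ± 2.0 CPM in DU145 GFP high and 10.1 ± 0.5 CPM in DU145 GFP low (SD, n = 3 each), a log2 fold change of 0.84 ± 0.13 (limma adjusted p = 0.0013), against 0.21 ± 0.13 in PC3. The A20-binding gene TNIP1 fell in DU145, to 344 ± 42 CPM in GFP high against 488 ± 25 CPM in GFP low (-0.51 ± 0.11, adjusted p = 0.00898), and had a log2 value of 0.33 ± 0.11 in PC3 that did not pass. TNIP2, its relative, fell by 0.29 in DU145 (adjusted p = 0.0207), a call lost without GFP high replicate 1 or 2 or GFP low replicate 1 or 3 (adjusted p 0.0586 to 0.0904), and had 0.01 ± 0.08 in PC3.

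The 4 largest fold changes among the PC3 calls were in cytokine genes. Of 8, 6 were tested, of which 5 rose in PC3. IL6 (ENSG00000136244, chromosome 7, 22725884 to 22732002) encodes interleukin-6, which signals through STAT3. It had 30.7, 40.3 and 27.1 CPM in PC3 GFP high, against 6.09, 5.55 and 5.70 CPM in PC3 GFP low. In DU145 there were 20 and 17 counts in all over the GFP high and GFP low libraries, below 1 CPM in each. Every PC3 GFP high library was far above every PC3 GFP low library. IL6 rose 5.58-fold in PC3 (log2 fold change 2.48 ± 0.33, limma adjusted p = 0.000288), the largest fold change of the 15 calls.

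IL32, a cytokine gene with no mouse counterpart, had 6.98, 7.49 and 7.39 CPM in PC3 GFP high, against 2.01, 2.82 and 1.22 CPM in PC3 GFP low. CSF1, the macrophage growth factor gene, had 3.62, 5.18 and 5.48 CPM in PC3 GFP high, against 1.25, 1.53 and 1.40 CPM in PC3 GFP low. For both genes the PC3 groups were clearly apart. The log2 fold changes were 1.93 ± 0.23 for IL32 (limma adjusted p = 0.000116) and 1.75 ± 0.18 for CSF1 (4.59e-05). In DU145, where both were higher, IL32 had 0.23 ± 0.23 and CSF1 -0.01 ± 0.18.

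CSF2 (ENSG00000164400, chromosome 5, 132073790 to 132076170) encodes GM-CSF, a growth factor for granulocytes and macrophages, and was the member that rose in both lines. It had 5.69, 5.02 and 3.97 CPM in PC3 GFP high, against 2.07, 2.59 and 1.58 CPM in PC3 GFP low. The DU145 libraries had 5.13, 3.89 and 5.55 CPM in GFP high, against 2.70, 2.10 and 1.42 CPM in GFP low. The groups were apart in both lines, and the levels of the 2 lines overlapped. The log2 fold change was 1.25 ± 0.29 in PC3 (limma adjusted p = 0.0147) and 1.26 ± 0.29 in DU145 (0.0105), and the interval of the difference was wide, from -0.89 to 0.86. The PC3 call was lost without GFP high replicate 1 or 2 (0.0728 and 0.0555) and the DU145 call without GFP low replicate 3 (0.0522).

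LIF, an interleukin-6 family cytokine gene, had 287, 312 and 275 CPM in PC3 GFP high, against 204, 201 and 208 CPM in PC3 GFP low. In DU145 it had 233, 243 and 264 CPM in GFP high, against 289, 288 and 299 CPM in GFP low. GFP high libraries were all above GFP low libraries in PC3 and all below them in DU145. The log2 fold changes were 0.51 ± 0.07 (limma adjusted p = 0.000304) and -0.25 ± 0.07 (adjusted p = 0.0216), the DU145 call being lost without GFP high replicate 1 or 2 or GFP low replicate 1 or 3 (0.0603 to 0.102). The interleukin-1 genes gave little to measure. IL1B had 55 and 52 counts over the PC3 GFP high and GFP low libraries, and 5 and 2 counts in DU145. IL1A had 0 and 1 counts in PC3 and 0 in both DU145 groups, and IL11 had 29 and 11 counts in PC3 and 7 and 13 counts in DU145, so differences in IL1A and IL11 were not detectable at this depth.

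Of the 6 effector targets, 3 rose in PC3 and 3 fell in DU145. ICAM1 (ENSG00000090339, chromosome 19, 10270835 to 10286615), the adhesion molecule that leukocytes bind, had 196, 194 and 179 CPM in PC3 GFP high, against 87.5, 112 and 85.9 CPM in PC3 GFP low. DU145 had 540, 598 and 652 CPM in GFP high, against 743, 694 and 778 CPM in GFP low. The order of the 2 sorts was thus reversed between the lines with no overlap in either. ICAM1 rose 2.01-fold in PC3 (log2 fold change 1.01 ± 0.10, limma adjusted p = 3.32e-05) and fell by 0.31 on the log2 scale in DU145 (adjusted p = 0.0389), a call lost without GFP high replicate 1 or 2 or GFP low replicate 1 or 3 (0.101 to 0.167).

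PTX3 (ENSG00000163661, chromosome 3, 157436789 to 157443628) encodes a secreted pentraxin of innate immunity. It had 43.6, 39.7 and 31.8 CPM in PC3 GFP high, against 18.0, 18.6 and 17.4 CPM in PC3 GFP low. In DU145 cells it had 116, 141 and 132 CPM in GFP high, against 222, 221 and 201 CPM in GFP low. As for ICAM1, the groups were apart in both lines and in opposite order. The log2 fold change was 1.08 ± 0.11 in PC3 (limma adjusted p = 4.05e-05) and -0.73 ± 0.11 in DU145 (adjusted p = 0.00129), the DU145 call that held under every alternative run.

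SOD2, the mitochondrial superoxide dismutase gene, had 300, 322 and 308 CPM in PC3 GFP high, against 199, 190 and 199 CPM in PC3 GFP low, groups far apart for their spread (log2 fold change 0.66 ± 0.06, limma adjusted p = 2.37e-05). In DU145 its value was 0.17 ± 0.06 (adjusted p = 0.0596). IER3, an early response gene linked to survival, fell in DU145 to 119 ± 15 CPM in GFP high, against 175 ± 26 CPM in GFP low (SD, n = 3 each; -0.56 ± 0.12, adjusted p = 0.00898). Its PC3 value of 0.34 ± 0.12 did not pass, and its groups there did not overlap. Estimated counts of ICAM1 and IER3 were not whole in any of the 12 libraries and those of SOD2 in 11, so their levels are less certain. TNFAIP2, a cytokine-induced gene, had 0.37 ± 0.11 in PC3 (adjusted p = 0.0518) and -0.04 ± 0.11 in DU145, and the transcription factor gene IRF1 had 0.29 ± 0.14 and 0.11 ± 0.14.

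**Figure D3:**
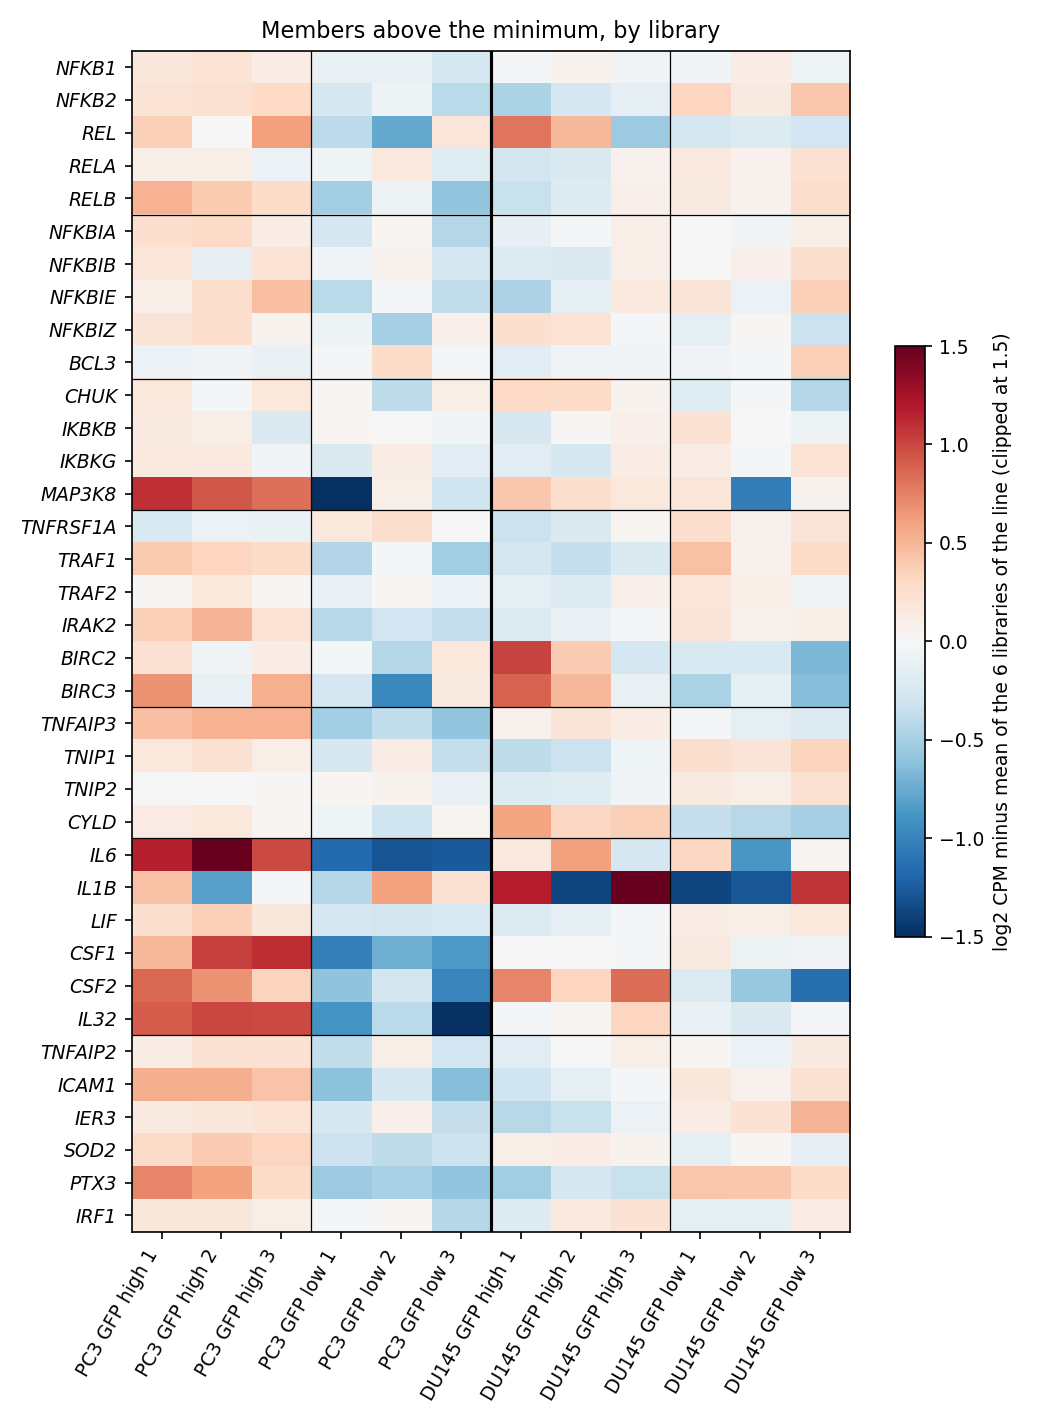
Log2 CPM of each of the 36 tested members (rows, by role) in each library (columns), minus the mean of the 6 libraries of its line, so that red is above and blue below the line's mean. In PC3 most rows are red in the GFP high columns, while in DU145 NFKB2, TNIP1, ICAM1, IER3 and PTX3 are blue there and CYLD and CSF2 are red.

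The design also allows a test of whether the GFP difference itself differed between PC3 and DU145. It did for 17 of the 36 members (limma adjusted p under 0.05), 47.2% against 15.9% of all genes. In 16 the PC3 log2 fold change was the higher (8.82% of all genes) and in CYLD the lower (7.06%). The median difference was 0.39 over the members and -0.05 over all genes. The widest was in IL6, at 2.14 ± 0.46 on the log2 scale (adjusted p = 0.00871). IL6 was below 1 CPM in every DU145 library, with 20 and 17 counts over GFP high and GFP low, so its DU145 part is poorly measured. PTX3 followed with 1.81 ± 0.16 and the lowest adjusted p (1.34e-05), and ICAM1 had 1.32 ± 0.14 (8.22e-05), NFKB2 1.08 ± 0.14 (0.000442) and RELB 1.10 ± 0.19 (0.00253). The calls of CSF1, ICAM1, IRAK2, LIF, NFKB2, PTX3, RELB and TNFAIP3 held under every alternative run. Those of NFKBIA, NFKBIE and CYLD, near the threshold with an adjusted p of 0.0446, 0.029 and 0.0349, were each lost on leaving out most single libraries of either line.

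Base composition moved with the DU145 values. Over 12510 genes, the DU145 log2 fold change fell with the GC content of the longest coding transcript (Spearman rho -0.64, across genes of the same libraries), with a median of 0.51 in the fifth of genes poorest in GC (up to 41.2%) and -0.26 in the fifth richest (from 58.7%). The members followed it (rho -0.68 over 36). Of the 5 that rose in DU145, BIRC3, BIRC2, CHUK and CYLD had a GC content of 34.8%, 38.0%, 39.1% and 39.7%, and CSF2 had 50.3%. In PC3 the same measure was -0.10 over all genes and -0.24 over the members.

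With that trend and the trend in transcript length removed from each library, 6 members passed in DU145, where 22.4% of all genes did, a share above that of the members. NFKB2 (-0.33 ± 0.05), TNIP1 (-0.29 ± 0.06), IER3 (-0.35 ± 0.07) and PTX3 (-0.74 ± 0.10) were lower in GFP high cells, and CSF2 (1.30 ± 0.26) and TNFAIP2 (0.18 ± 0.06) were higher. CHUK had -0.040 ± 0.09, BIRC3 0.11 ± 0.09, BIRC2 0.22 ± 0.13 and CYLD 0.29 ± 0.14, none of which passed. Of the members that fell as reported, ICAM1 had -0.12 ± 0.05, LIF -0.066 ± 0.06, TNIP2 -0.048 ± 0.07 and TNFRSF1A -0.14 ± 0.06, and these did not pass either. In PC3, 25 members were then higher and 1 lower (TNFRSF1A), where 19.7% of all genes passed, and the GFP effect of 21 members differed between the lines, as for 25.2% of all genes.

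**Figure D4:**
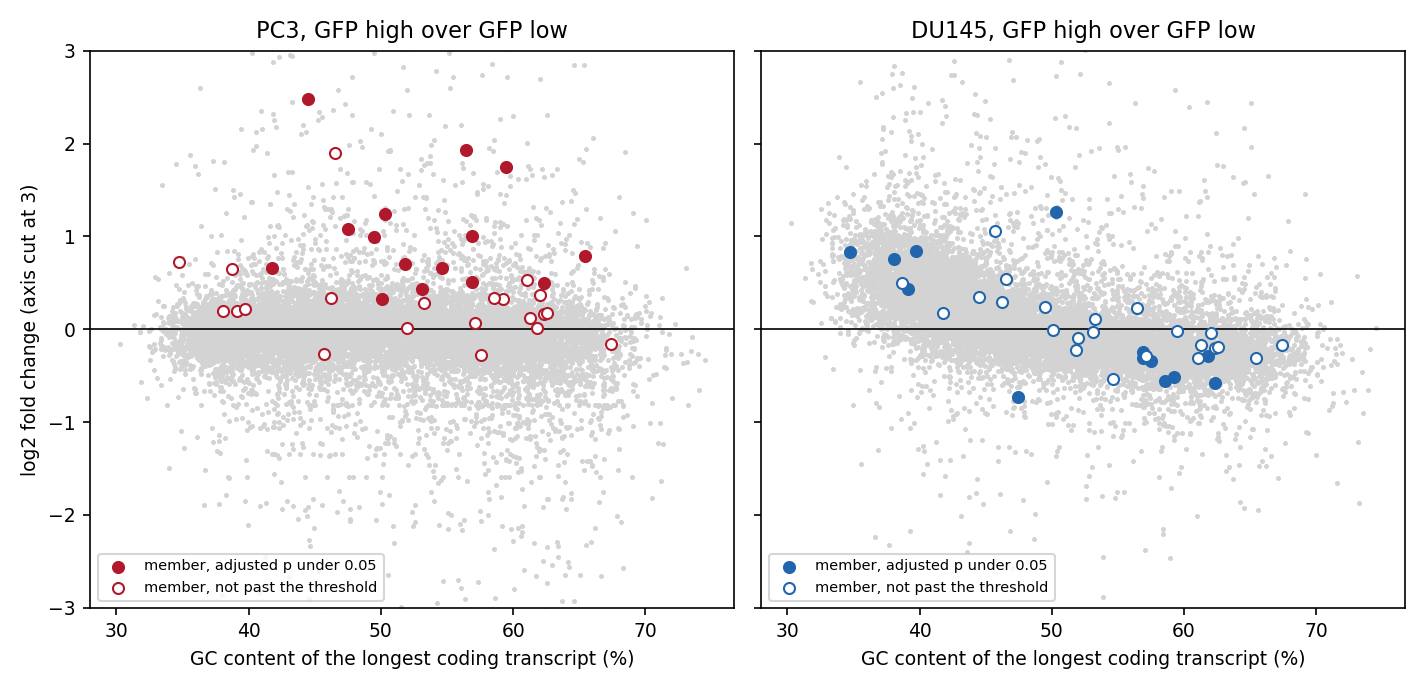
Log2 fold change of GFP high over GFP low (vertical axis) against the GC content of the longest coding transcript in percent (horizontal axis), for PC3 (left) and DU145 (right). Grey points are all genes tested and coloured points are members, filled where they passed; in DU145 the grey cloud slopes downward and most members lie along it, and in PC3 the filled members lie above a level cloud.

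The lines themselves were compared over both sorts. PC3 had lower levels than DU145 of 4 of 5 subunit genes, 4 of 5 IkB family genes and 5 of 6 effector genes. Of the 36 members, 9 were higher and 22 lower in PC3 (limma adjusted p under 0.05), 86.1% against 77.5% of all genes (39.2% higher and 38.3% lower), with a median log2 difference of -0.55 over the members and 0.01 over all genes. The 6 PC3 libraries did not overlap with the 6 DU145 libraries for 6 higher and 19 lower members, against 46.9% of all genes, 21.8% higher and 25% lower. IL6, IL1B and MAP3K8 reached the minimum through 1 line and so had to differ; of the 33 members at the minimum in all libraries, 7 were higher and 21 lower. Setting the medians of the libraries equal moved the median of all genes to -0.13 here and to 0.08 for the difference of the GFP effects.

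IL6 had 2040 and 298 counts over the GFP high and GFP low libraries of PC3, against 20 and 17 counts in DU145. MAP3K8 had the opposite order, with 21 and 5 counts in PC3, against 121 and 96 counts in DU145. TRAF1 (log2 difference 1.90 ± 0.13), CHUK (1.28 ± 0.10) and IER3 (1.08 ± 0.09) were higher in PC3. Among members at the minimum in all libraries, those lowest in PC3 relative to DU145 were IL32 (-3.77 ± 0.16), PTX3 (-2.67 ± 0.08), CSF1 (-2.65 ± 0.13) and ICAM1 (-2.31 ± 0.07). The IkB family and brake genes NFKBIZ (-1.94 ± 0.10), TNFAIP3 (-1.89 ± 0.07), NFKBIA (-1.69 ± 0.07) and TNIP1 (-1.13 ± 0.08) were lower too. So were the subunit genes RELB (-1.25 ± 0.10), NFKB2 (-1.01 ± 0.07), RELA (-0.996 ± 0.07) and NFKB1 (-0.42 ± 0.05). CSF2 (0.02 ± 0.20), REL, TNIP2, IKBKB and NFKBIE did not pass. Even where a member rose in PC3 GFP high cells it could stay far below DU145: TNFAIP3 averaged 22.7 ± 0.61 CPM in PC3 GFP high and 54.6 ± 3.4 CPM in DU145 GFP low (SD, n = 3 each).

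**Figure D5:**
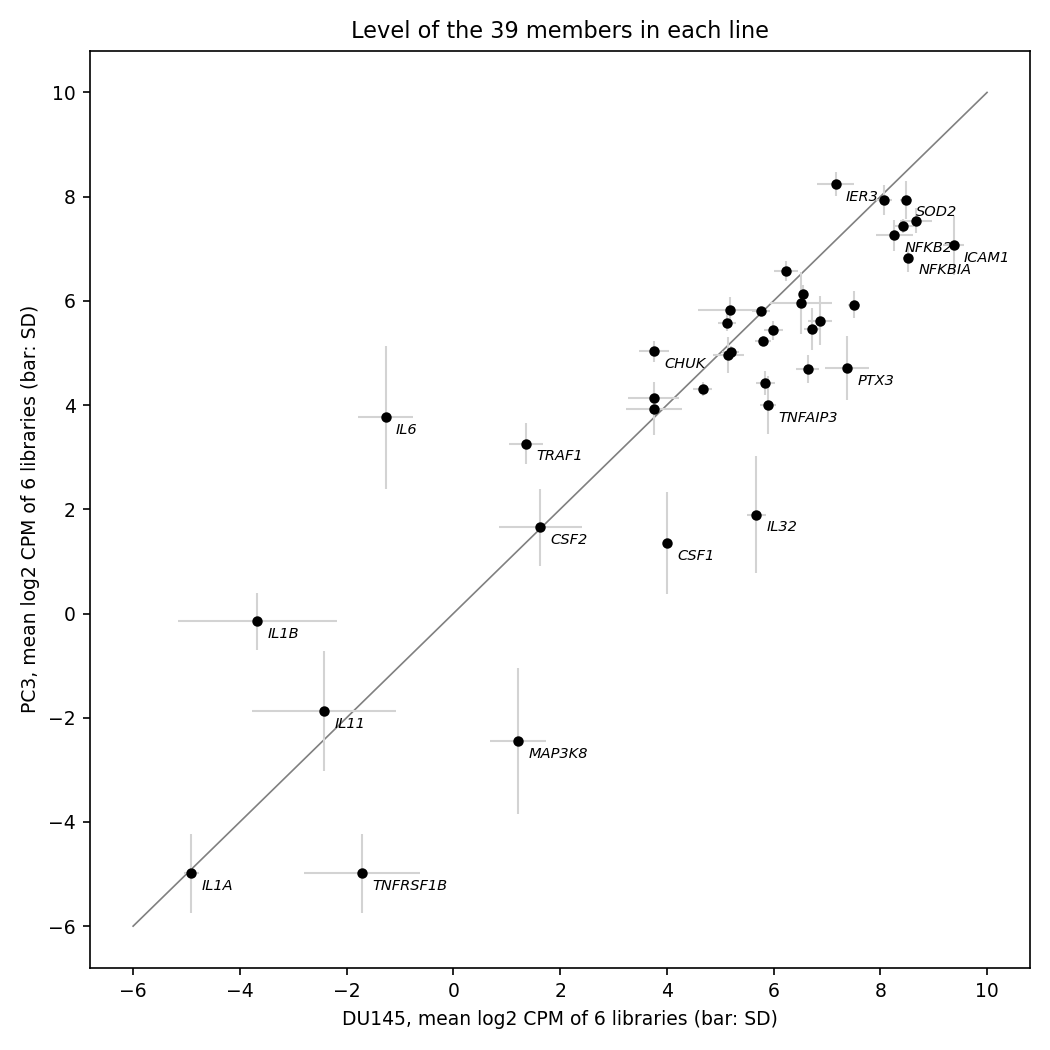
Mean log2 CPM of the 39 members in PC3 (vertical axis) against DU145 (horizontal axis), each over 6 libraries of both sorts, with bars of 1 SD and the line of equal levels. IL6, IL1B, TRAF1, CHUK and IER3 lie above the line, and IL32, CSF1, MAP3K8, PTX3, TNFAIP3 and ICAM1 lie below it.

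Beyond the members, 47 other genes of the pathway's machinery were listed, of which 46 were tested. In PC3, 3 rose and 2 fell, with a median log2 fold change of 0.07; these are 10.9% of the list, near the 9.44% of all genes. The 4 with the lowest p were CARD10, a scaffold of receptor signalling (-0.77 ± 0.11, limma adjusted p = 0.000529), TRAF3, which restrains the non-canonical pathway (0.40 ± 0.07), TNFRSF10B, a TRAIL receptor gene (0.40 ± 0.07), and SHARPIN, of the linear ubiquitin ligase (-0.61 ± 0.13). In DU145, 8 rose and 7 fell, 32.6% of the list against 27.1% of all genes. The lowest p-values were those of the paracaspase gene MALT1 (1.47 ± 0.24), TAB2, a partner of the kinase TAK1 (0.78 ± 0.14), MAP3K14, the kinase of the non-canonical pathway (-0.45 ± 0.10), and the ubiquitin ligase gene ITCH (0.72 ± 0.17).

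Of 43 other genes reported as targets of the pathway, 33 were tested, and the list was drawn up with results on CCL2, CXCL1, CXCL8 and TNF in these libraries already known. In PC3, 14 rose and 2 fell, 48.5% of the list against 9.44% of all genes, with a median log2 fold change of 0.32. In DU145 4 rose and 5 fell, with a median of -0.10, and this 27.3% of the list was near the 27.1% of all genes. The lowest p-values in PC3 belonged to the chemokine genes CCL2 (3.502 ± 0.16), CXCL1 (1.57 ± 0.09) and CXCL8 (1.55 ± 0.11) and the ephrin ligand gene EFNA1 (2.04 ± 0.13). In DU145 they belonged to TNF (-1.47 ± 0.12), the cytokine gene IL15, with 9 counts over the GFP high libraries and 0 over GFP low, CCL2 (-0.70 ± 0.16) and the caspase inhibitor gene XIAP (0.66 ± 0.15). IL15 was below 1 CPM in every DU145 library and entered the test through PC3, so its DU145 call rests on very few counts. CCL2 thus rose in PC3 and fell in DU145 as reported, as NFKB2, LIF, ICAM1 and PTX3 did. With the trend in GC content and length removed, the DU145 falls of LIF and ICAM1 did not pass.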

How the data were processed

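RNA of 12 sorted samples was sequenced. The authors deposited 1 table of log2 normalised counts. STAR and DESeq2 are named, with no role or version, by the submitters' processing notes; the genome build is not given in the sources used here. Each deposited log2 value was taken to be a CPM after an offset of 0.5 counts, since the lowest value of each column fitted that, and estimated counts and totals were recovered from them (a count was called whole within 0.01). The test was limma 3.58.1 (R 4.3.3; lmFit, eBayes with trend) on 4 group means over 12 samples, with 8 residual degrees of freedom, two-sided, for 12527 genes that reached a log2 value of 0 in 3 or more samples. Members below that come from a fit with no minimum. Benjamini-Hochberg adjustment ran over all genes tested, at 0.05, and the script was tested on simulated data. CPM is 2 to the power of the deposited log2 value, relative to a library size that differed from the summed estimated counts. That size was 16497986 against 18463611 summed counts in DU145 GFP low replicate 1. In PC3 GFP high replicate 3 it was 23066898 against 21528810. The ± after a log2 value is the SE. Coordinates, GC content and length come from GENCODE 29 (GRCh38). All 39 members were named or counted by role, and up to 4 other genes per list and line were named by lowest p. The members and lists were chosen with earlier results of these data known. Groups were taken from the labels, and no sample was left out.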

Additional observations from a re-analysis of the deposited data

Results flagged for a closer look

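For 17 members, the test of the difference between the 2 lines' GFP effects passed (limma, adjusted p under 0.05, 8 residual degrees of freedom), as for 15.9% of all genes. Values are the log2 fold change of GFP high over GFP low in PC3 minus that in DU145. Among regulators, the difference was 1.08 for NFKB2, 1.10 for RELB, 0.47 for NFKBIA, 0.84 for NFKBIE, 0.94 for IRAK2, 1.19 for TRAF1, 0.75 for TNFAIP3, 0.84 for TNIP1 and -0.63 for CYLD. Among cytokines it was 2.14 for IL6, which was below 1 CPM in every DU145 library, 1.76 for CSF1, 1.71 for IL32 and 0.76 for LIF. Among effectors it was 1.81 for PTX3, 1.32 for ICAM1, 0.89 for IER3 and 0.49 for SOD2. In NFKB2, LIF, ICAM1 and PTX3 the effect passed in opposite directions in the 2 lines as reported; after removal of a trend with GC content and length, the DU145 effects of ICAM1 (-0.12 ± 0.05, adjusted p = 0.128) and LIF (-0.066 ± 0.06, adjusted p = 0.44) did not pass. With that trend removed the CYLD difference was -0.093 and did not pass, while that of PTX3 was 1.85, ICAM1 1.17, NFKB2 0.97 and SOD2 0.97.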

How the results depend on the processing

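The members called in PC3 were 15 as reported (9.44% of all genes) and 25 with arrayWeights (30.1%). With the GC content and length trend removed they were 26, with or without the replicate block (21.5% and 19.7%). The other settings gave 11 to 20, as did leaving out 1 library (5.27% to 9.48%). In DU145 the 13 calls (27.1% of all genes) became 25 with arrayWeights (56.4%) and 5 at a limma adjusted p under 0.01 (6.26%). They became 6 with the trend removed (22.4%), 8 with it removed and the block (26.1%), and 5 to 21 without 1 library (7.15% to 44.7%). The difference between lines was called for 17 members, 27 with arrayWeights, 10 without both those DU145 libraries and 14 to 24 without 1 library. PC3 against DU145 gave 31 (77.5% of all genes), and 27 to 33 otherwise (57% to 83.2%). In DU145, removing the trend turned TNFAIP2 to 0.18 and CHUK to -0.040, with or without the block, and with the block SOD2 to -0.34. The line difference of BIRC3 turned to 0.65 and passed, and quantile normalization turned LIF in PC3 against DU145 to 0.051. The cause of each was not tested.

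Whether the replicate numbers pair the samples is not stated by the labels and was not settled here. Same-numbered deviations correlated at 0.06, 0.20 and 0.14 in PC3, above all differently numbered ones (-0.17 to 0.04). In DU145 they correlated at -0.02, 0.09 and 0.21, within or near the range of the differently numbered ones (-0.23 to 0.18). With the block, 20 members passed in PC3 (12.4% of all genes), 15 in DU145 (38.7% of all genes) and 20 for the difference (26.5% of all genes).

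Over all genes, 1182 passed in PC3 (522 higher, 660 lower; 509 and 412 at equal medians) and 3389 in DU145 (1647 and 1742; 1313 and 2305 at equal medians). The counts in PC3 ranged from 410 without both GFP low replicates 2 and 3 to 3768 with arrayWeights, in DU145 from 170 without both GFP high replicates 1 and 2 to 7060 with arrayWeights, and for the difference from 649 to 6411 in the same settings. Depth limits IL1A, IL11 and TNFRSF1B.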
